A study of Mus musculus with 6 samples.

Results

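The data cover 10 genes of late red cell maturation in the bone marrow of mice that express human *CDX2* in their blood-forming cells. They are a list of named genes, drawn up with earlier results of these data known: the mitophagy genes *Bnip3l*, *Fundc1* and *Ulk1*, the ubiquitin system genes *Trim58*, *Ube2o*, *Ube2h*, *Fbxo7* and *Mkrn1*, the nuclear transport gene *Xpo7*, and the lipoxygenase *Alox15*. All 10 symbols matched 1 Ensembl identifier each among the 39179 identifiers in the files, and all 10 were among the 15980 genes with enough counts to be tested.

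Stranded mRNA libraries were made from the bone marrow of 6 littermates. The 3 *MxCDX2* mice carried *RsCDX2*, a *Rosa26* knockin in which a loxP-flanked stop precedes the coding sequence of human *CDX2*, together with the *Mx1Cre* transgene, whose Cre recombinase is driven by an interferon-responsive promoter. The control mice were 1 *RsCDX2* mouse without Cre (control 1), 1 *Mx1Cre* mouse without the knockin (control 2) and 1 wild-type mouse (control 3), so that no control genotype had a replicate. All 6 mice, controls included, were given poly(I:C) by the intraperitoneal route 3 times at the age of 3 months, at 10 µg per g of body weight, and were studied 6 weeks later. The *Mx1* promoter responds to interferon in many cell types, so that recombination is not limited to the erythroid lineage. Counts on genes were between 38646101 and 49899650 per mouse. Normalized counts are counts divided by the TMM-adjusted library size of edgeR and brought to the mean of the 6 mice. The test was the quasi-likelihood test of edgeR, adjusted p-values are Benjamini-Hochberg values over all 15980 genes, and the thresholds were an absolute log2 fold change above 1 together with an adjusted p-value below 0.05. Log2 fold changes are *MxCDX2* relative to control and carry their standard error (SE), and group values are the mean ± SD of 3 mice.

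A reticulocyte is the young red cell that has lost its nucleus but still holds mitochondria, ribosomes and other organelles. It removes them by autophagy, in which membranes enclose and digest cell parts, and by the ubiquitin-proteasome system, in which a chain of E1, E2 and E3 enzymes tags proteins for degradation. Several genes of both systems are strongly transcribed in late erythroblasts, before the nucleus is lost. In whole bone marrow, fewer cells of a type and less RNA per cell cannot be told apart.

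Of the 10 genes, 6 were downregulated past both thresholds (*Trim58*, *Ube2o*, *Xpo7*, *Mkrn1*, *Bnip3l* and *Fbxo7*) and 0 were upregulated past them, also with DESeq2; 0 were higher even at an unadjusted p below 0.05 by edgeR. Over all tested genes, 1443 were downregulated past both thresholds, which is 9.03%, and 13.6% passed in either direction. *Ulk1* and *Ube2h* had an adjusted p-value below 0.05 at a smaller fold, which makes 8 lower genes at any fold beside 11.8% of all tested genes. In the same 8 genes, every *MxCDX2* mouse lay below every control mouse, a separation that 20.7% of all tested genes showed. *Alox15* and *Fundc1* did not pass the test. The median log2 fold change of the 10 genes was -1.44, with a range of -3.43 to 0.28, beside a median of 0.0 over all tested genes.

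**Figure D1:**
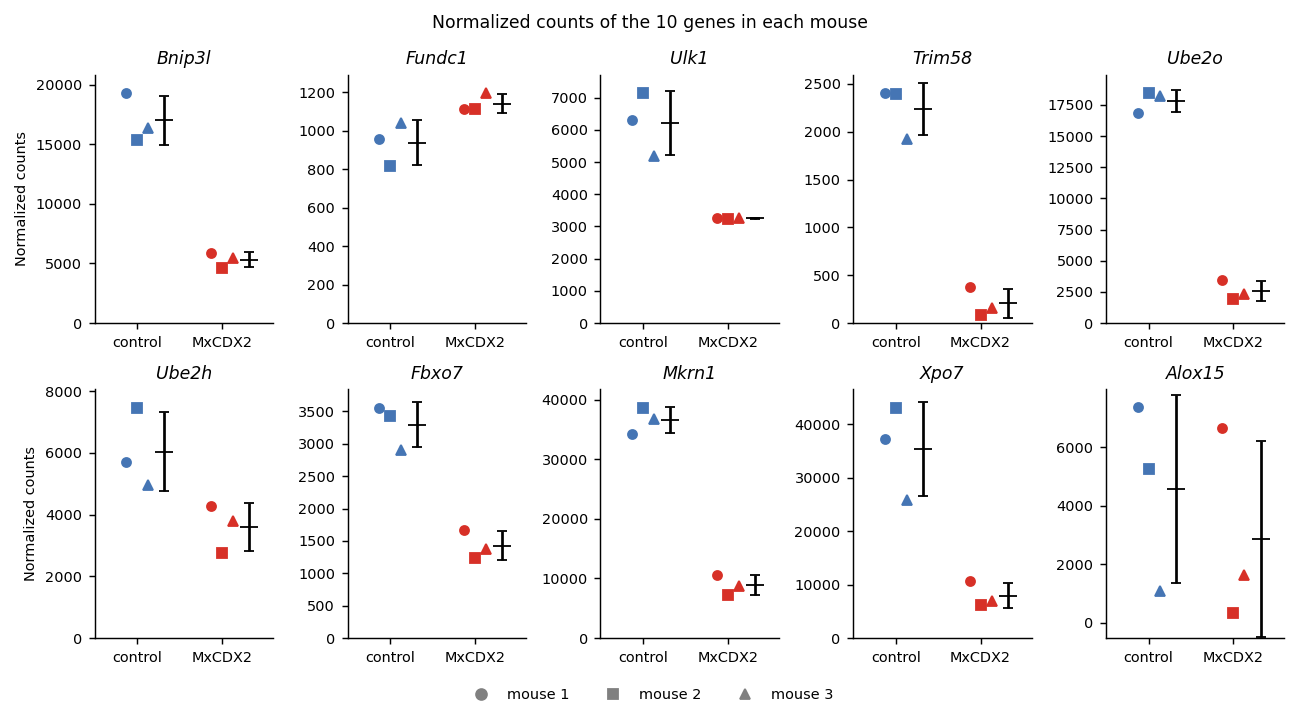
Normalized counts of the 10 genes (vertical axes, linear, a scale per gene) in the 3 control mice (blue) and the 3 *MxCDX2* mice (red); circles, squares and triangles are mice 1, 2 and 3 of each group, and the bars are the mean ± SD. The groups are apart with lower *MxCDX2* values in 8 genes, apart with higher *MxCDX2* values in *Fundc1*, and overlap in *Alox15*, where the lower SD bar of the *MxCDX2* mice passes below 0.

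Markers of several cell types also differed between the groups, in both directions. All 11 erythroid markers analysed (globin genes and genes of the red cell membrane and its skeleton) were downregulated past both thresholds, with a median log2 fold change of -3.40, and their summed normalized counts were 1809002 to 2147379 in control mice and 51440 to 205913 in *MxCDX2* mice. Without *MxCDX2* mouse 3, 5 of the 11 passed. Of 6 monocyte markers, 5 were upregulated, and the summed level of the 6 was 62391 to 96175 in control and 285767 to 351038 in *MxCDX2* mice. The remaining monocyte marker, *Fn1*, had a lower mean in *MxCDX2* mice without passing (log2 fold change -0.82, adjusted p = 0.226). Some markers were downregulated for macrophages (5 of 9; 23990 to 65665 against 13715 to 18827), neutrophils (3 of 7; 834745 to 1659980 against 497817 to 644124), B cells (3 of 6; 15415 to 40928 against 3578 to 11457) and megakaryocytes (2 of 6; 21818 to 261961 against 9941 to 13718, with control 3 highest). The neutrophil calls were *Ltf*, *Lcn2* and *Mmp8*. *Mpo* and *Elane* did not pass (log2 fold changes 0.31 and -0.31, adjusted p = 0.725 and 0.77). The macrophage marker *Adgre1* was higher in every *MxCDX2* mouse than in every control mouse, without passing (log2 fold change 0.75, adjusted p = 0.085). By edgeR, 0 of the 9 eosinophil markers passed (39039 to 190970 against 11760 to 144651). At an unadjusted p below 0.05 by edgeR, 1 was higher (*Siglecf*) and 1 lower (*Ccr3*), and DESeq2 called 1 in each direction. No marker was at 0 in any mouse, and the part of these shifts in the values below was not tested.

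Among the mitophagy genes, *Bnip3l* (ENSMUSG00000022051, chr14:66985239-67008877 of GRCm38, minus strand) encodes NIX, the outer membrane receptor by which reticulocyte mitochondria are handed to the autophagy machinery. Its normalized counts were 19305, 15377 and 16367 in control mice 1 to 3, against 5867, 4628 and 5480 in *MxCDX2* mice 1 to 3. Each *MxCDX2* mouse was far below the lowest control mouse, and the spread within each group was small. The mean fell from 17016 ± 2043 to 5325 ± 633.7, which was 31.3% of control (log2 fold change -1.68, SE 0.14, adjusted p = 0.00159). A pseudogene named after it, *Bnip3l-ps*, had at most 87 counts in any mouse, whereas *Bnip3l* had at least 4724.

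*Fundc1* (ENSMUSG00000025040, chrX:17556564-17572325, minus strand) encodes another mitochondrial outer membrane receptor, which is known from mitophagy in low oxygen. It had 959.7, 815.2 and 1042 normalized counts in control mice 1 to 3, against 1114, 1115 and 1197 in the *MxCDX2* mice. The groups did not overlap, with the *MxCDX2* mice higher, as was the case for 21.4% of all tested genes. The means of 939 ± 114.8 and 1142 ± 47.53 did not differ by the test (log2 fold change 0.28, SE 0.14, adjusted p = 0.195).

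*Ulk1* (ENSMUSG00000029512, chr5:110784488-110810097, minus strand) encodes the kinase that starts autophagosome formation, and loss of it delays the clearance of mitochondria and ribosomes in reticulocytes. Its normalized counts were 6313, 7145 and 5185 in control mice 1 to 3, against 3260, 3221 and 3267 in the *MxCDX2* mice. The 3 *MxCDX2* mice were almost at the same level, with a coefficient of variation of 0.758% against 15.8% in the control mice. The mean was 6214 ± 984 in control and 3249 ± 24.61 in *MxCDX2* mice, 52.3% of control, so that *Ulk1* passed the adjusted p-value but not the fold threshold (log2 fold change -0.94, SE 0.13, adjusted p = 0.00499). Without control mouse 3 it passed both (log2 fold change -1.03, adjusted p = 0.00249).

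Of the ubiquitin system, *Trim58* (ENSMUSG00000037124, chr11:58640465-58652404, plus strand) encodes an E3 ubiquitin ligase of late erythroblasts that acts on the dynein motor and takes part in the loss of the nucleus. It had 2405, 2390 and 1924 normalized counts in control mice 1 to 3, against 379.2, 89.15 and 154.1 in the *MxCDX2* mice. The *MxCDX2* mice differed several-fold among themselves, and the highest of them was still well below the lowest control mouse. The mean fell from 2240 ± 273.7 to 207.5 ± 152.2, or 9.25% of control, the largest fall of the 10 genes (log2 fold change -3.43, SE 0.53, adjusted p = 0.00657).

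The promoter letters of the gene with the largest fall and of the gene with the tightest *MxCDX2* values are shown as examples, chosen by these values. They were taken from RefSeq (GRCm38.p6) for the 250 bases before the annotated start, read 5′ to 3′ on the strand of the gene, and bases in exons of GENCODE M21, the 16 next to the start in *Ulk1*, were left out. Capitals mark matches, on either strand, to the erythroid GATA letters (AGATAA, with T in place of the first letter or G in place of the last also taken) or to the letters CCNCNCCC of CACCC boxes, which overlap GC boxes. The *Trim58* window is chr11:58640215-58640464 and the *Ulk1* window is chr5:110810098-110810331.
Trim58: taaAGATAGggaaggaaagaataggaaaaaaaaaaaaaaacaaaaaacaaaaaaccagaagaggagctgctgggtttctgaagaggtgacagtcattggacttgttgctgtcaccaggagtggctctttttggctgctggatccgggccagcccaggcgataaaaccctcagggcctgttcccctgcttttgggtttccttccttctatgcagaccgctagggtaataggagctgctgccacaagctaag
Ulk1: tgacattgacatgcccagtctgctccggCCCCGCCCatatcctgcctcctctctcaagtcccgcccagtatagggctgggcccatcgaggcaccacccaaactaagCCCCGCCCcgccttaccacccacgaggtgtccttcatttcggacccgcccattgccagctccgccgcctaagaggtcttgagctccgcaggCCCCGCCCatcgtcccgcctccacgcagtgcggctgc
The *Trim58* window holds 1 GATA match, at -247 from the start (the base before the start is -1), and no CACCC match. The *Ulk1* window holds 3 CACCC matches, at -222, -144 and -53, and no GATA match. Neither window matches the CDX letters ATTTATA, with C in place of the first letter or G in place of the last also taken. Of the 10 genes, 6 had a RefSeq window (*Trim58*, *Ulk1*, *Ube2h*, *Mkrn1*, *Fbxo7* and *Fundc1*), with 9 windows in all. GATA letters were in 2 of the 9 windows, CACCC letters in 6 and CDX letters in 1 (an internal start of *Ube2h*), beside 26.5%, 45.9% and 11.3% of 32851 mouse promoter windows of the same length. By gene, GATA letters were in *Trim58* and *Ube2h*, CACCC letters were in *Ulk1*, *Ube2h*, *Mkrn1* and *Fundc1*, and *Fbxo7* had neither. These matches describe letters and show no binding, and a relation between the letters and the size of a fall was not tested.

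*Ube2o* (ENSMUSG00000020802, chr11:116537740-116581447, minus strand) encodes a large enzyme that joins E2 and E3 activity and marks ribosomal and other proteins for removal in reticulocytes. Its normalized counts were 16810, 18457 and 18194 in control mice 1 to 3, against 3462, 1939 and 2320 in the *MxCDX2* mice. Control mice were close together and no *MxCDX2* mouse came near them. The mean fell from 17820 ± 884.6 to 2574 ± 792.6, 14.4% of control (log2 fold change -2.79, SE 0.23, adjusted p = 0.00156).

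*Mkrn1* (ENSMUSG00000029922, chr6:39397804-39420462, minus strand) encodes a RING-finger E3 ligase that also binds RNA. It had 34260, 38604 and 36689 normalized counts in control mice 1 to 3, against 10570, 7261 and 8695 in the *MxCDX2* mice. The groups were widely apart, and the mean fell from 36517 ± 2177 to 8842 ± 1659, 24.2% of control (log2 fold change -2.05, SE 0.17, adjusted p = 0.00156). The antisense gene *Gm10244* shares 365 exon bases with *Mkrn1*, and whether counting used the strand is not given in the sources used here. *Gm10244* had at most 38 counts and the pseudogene *Mkrn1-ps1* at most 9, beside at least 7412 for *Mkrn1*.

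*Fbxo7* (ENSMUSG00000001786, chr10:86021972-86051873, plus strand) encodes an F-box protein, the substrate-binding part of an SCF ubiquitin ligase, which also binds the proteasome regulator encoded by *Psmf1*. Its normalized counts were 3555, 3427 and 2909 in control mice 1 to 3, against 1666, 1230 and 1380 in the *MxCDX2* mice. All *MxCDX2* mice were below all control mice, by a smaller margin than for *Ube2o* or *Mkrn1*. The mean fell from 3297 ± 341.9 to 1426 ± 221.5, 43.2% of control (log2 fold change -1.21, SE 0.15, adjusted p = 0.00344), but *Fbxo7* was not called when the null was a log2 fold change of 1 (adjusted p = 0.295).

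*Ube2h* (ENSMUSG00000039159, chr6:30211289-30304539, minus strand) encodes the E2 enzyme that works with the CTLH ubiquitin ligase in erythroblasts. It had 5708, 7454 and 4953 normalized counts in control mice 1 to 3, against 4279, 2738 and 3779 in the *MxCDX2* mice. *MxCDX2* mouse 1 lay just under control mouse 3. The mean was 6039 ± 1283 in control and 3599 ± 785.9 in *MxCDX2* mice, 59.6% of control, at the edge of the adjusted p-value (log2 fold change -0.75, SE 0.21, adjusted p = 0.0499). The adjusted p-value of *Ube2h* was below 0.05 in 5 of 16 ways of running the test, and was 0.0918 with the replicate number of the mice as a block.

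*Xpo7* (ENSMUSG00000022100, chr14:70654246-70766628, minus strand) encodes exportin 7, a nuclear transport receptor that is needed for nuclear condensation in erythroblasts. Its normalized counts were 37314, 43101 and 25876 in control mice 1 to 3, against 10681, 6183 and 6980 in the *MxCDX2* mice. The control mice were spread more widely than for *Mkrn1*, and their lowest value was well above the highest *MxCDX2* value. The mean fell from 35430 ± 8766 to 7948 ± 2400, 22.4% of control (log2 fold change -2.16, SE 0.28, adjusted p = 0.00401). *Npm2* shares 39 exon bases with *Xpo7* on the same strand and had at most 31 counts, beside at least 6311 for *Xpo7*.

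*Alox15* (ENSMUSG00000018924, chr11:70344152-70352031, minus strand) encodes 12/15-lipoxygenase, which oxidizes lipids of organelle membranes in reticulocytes and is also made by eosinophils and some macrophages. It had 7378, 5246 and 1090 normalized counts in control mice 1 to 3, against 6661, 333.1 and 1632 in the *MxCDX2* mice. The groups overlapped, with the wild-type control below 2 of the 3 *MxCDX2* mice. The means of 4572 ± 3198 and 2875 ± 3342 had coefficients of variation of 69.9% and 116%, and the test gave no difference (log2 fold change -0.67, SE 1.06, adjusted p = 0.695). Without *MxCDX2* mouse 1 the log2 fold change was -2.21, which was still not called.

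The values of *Alox15* lay close to those of genes of eosinophil granules across the 6 mice, a comparison chosen after the values were seen. Among 11981 tested genes whose mean normalized count was 100 or more, *Prg2*, *Ear6* and *Epx* had the smallest root mean square difference from *Alox15* in log2 level over the 6 mice, each gene centred on its own mean (0.196, 0.274 and 0.28). *Prg2*, the major basic protein of eosinophil granules, had 126129, 84175 and 22969 normalized counts in control mice 1 to 3, against 92627, 6609 and 27637 in the *MxCDX2* mice. *Alox15* counts were between 4.75% and 7.19% of *Prg2* counts, between 17.3% and 31.2% of those of the peroxidase gene *Epx*, and between 50.9% and 91.2% of those of the ribonuclease gene *Ear6*. These narrow ranges follow in part from the choice of the nearest genes, and the cell source of *Alox15* RNA was not tested. Of the 3 eosinophil surface receptor genes, *Il5ra* followed *Alox15* more closely than *Siglecf* and *Ccr3* did. The ratio of *Alox15* to *Il5ra* differed 2.18-fold between the lowest and the highest mouse, that to *Siglecf* 37.8-fold and that to *Ccr3* 18.3-fold. *Siglecf* was higher in every *MxCDX2* mouse than in every control mouse (log2 fold change 1.10, adjusted p = 0.0687). *Ccr3* was highest in control mouse 3, the control mouse with the lowest *Alox15*, and lower in the *MxCDX2* mice (log2 fold change -2.23, adjusted p = 0.0744).

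**Figure D2:**
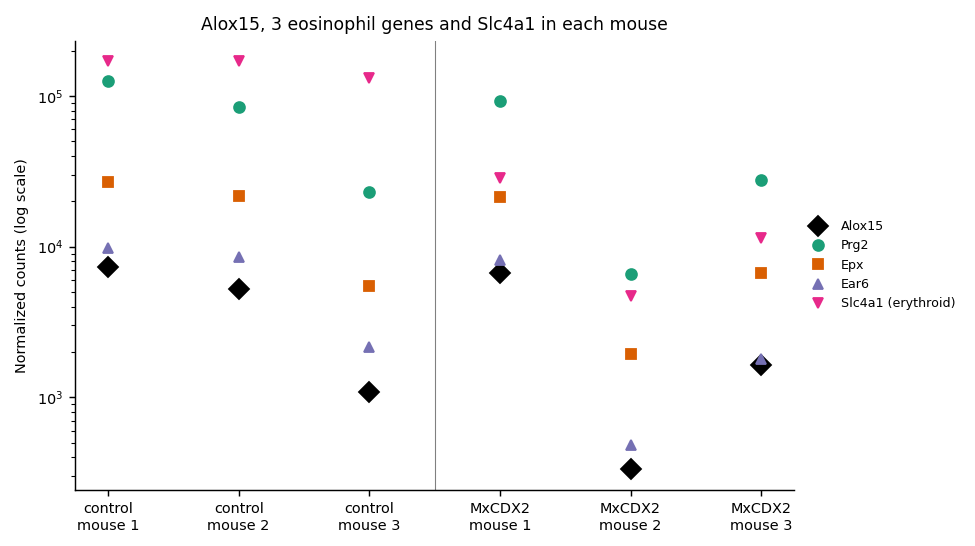
Normalized counts (log axis) of *Alox15* (black diamonds), of 3 eosinophil genes and of the erythroid gene *Slc4a1* in each of the 6 mice. The 3 eosinophil genes are those nearest to *Alox15* in pattern, so that their like course follows in part from that choice. *Alox15* is between 4.75% and 7.19% of *Prg2* in every mouse. In control mouse 3, *Alox15* is at 1090 and *Slc4a1* at 131921 normalized counts, each the lowest of the control mice. The cell source of *Alox15* RNA was not tested.

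Within the *MxCDX2* group, the 10 genes tended to rank the mice alike. In 8 genes the *MxCDX2* mice came in the order 1, 3 and 2 from high to low, and *MxCDX2* mouse 2 was the lowest in 9. The summed erythroid markers had the same order, with 205913, 104438 and 51440 normalized counts in *MxCDX2* mice 1, 3 and 2. The summed eosinophil and B cell markers also had this order in the *MxCDX2* mice, and the macrophage, megakaryocyte, neutrophil and monocyte sums did not. The control mice had no such common order. Among them, mouse 3 (wild type) was the lowest in 6 of the 10 genes and the highest in *Fundc1*. With 3 mice a group, no test was made of these orders. Their share over all tested genes was not computed, so that they cannot be read as particular to the 10 genes.

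Per length, *Mkrn1* and *Xpo7* had the highest levels of the 10 genes. As RPKM computed from the normalized counts and the longest principal transcript, control levels were 264 ± 15.7 for *Mkrn1*, 174 ± 43.1 for *Xpo7*, 116 ± 13.9 for *Bnip3l* and 75.3 ± 3.74 for *Ube2o*. Below them came *Alox15* (41.7 ± 29.2), *Ube2h* (28.5 ± 6.06), *Ulk1* (26.2 ± 4.15), *Trim58* (22.5 ± 2.75), *Fbxo7* (13.5 ± 1.40) and *Fundc1* (10.4 ± 1.27). The neighbours from *Alox15* down to *Trim58* were within their SDs of each other. In *MxCDX2* mice *Mkrn1* was again highest, at 63.8 ± 12.0, and *Xpo7* (39.1 ± 11.8) and *Bnip3l* (36.2 ± 4.30) were within their SDs of each other. *Alox15* (26.3 ± 30.5) and *Ube2h* (17.0 ± 3.71) followed. *Ube2o* (10.9 ± 3.35) was then close to *Fundc1* (12.7 ± 0.527) and *Ulk1* (13.7 ± 0.104), with *Fbxo7* at 5.82 ± 0.904 and *Trim58* lowest at 2.08 ± 1.53.

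To place these falls beside those of erythroid marker genes of the same mouse, each gene's log2 level (normalized count plus 1) was set against the mean log2 level of 7 erythroid membrane genes (*Slc4a1*, *Epb42*, *Sptb*, *Ank1*, *Rhag*, *Kel* and *Ermap*). That mean was 14.58, 14.6 and 14.14 in control mice 1 to 3, against 12.06, 9.57 and 10.58 in the *MxCDX2* mice, a difference of -3.70. The relative log2 level of *Trim58* was -3.35, -3.37 and -3.23 in control mice 1 to 3, against -3.49, -3.07 and -3.30 in *MxCDX2* mice 1 to 3. The groups overlapped, and the difference of 0.03 in the relative level of *Trim58* did not pass (exact permutation test, two-sided, p = 0.8). It was -0.08 without *MxCDX2* mouse 2, and 0.72 with the globin genes as the reference. *Ube2o* lay at -0.54, -0.43 and 0.01 in control and -0.30, 1.35 and 0.60 in *MxCDX2* mice, with a difference of 0.87 (exact permutation p = 0.2).

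The other 8 genes were higher relative to the erythroid membrane genes in every *MxCDX2* mouse than in every control mouse. This was largely fixed in advance, since the reference, with its difference of -3.70, fell more than any of them. It is no sign of a rise within erythroid cells, and in which marrow cells the RNA was made was not tested. The differences in log2 were 1.54 for *Xpo7*, 1.64 for *Mkrn1*, 2.03 for *Bnip3l*, 2.49 for *Fbxo7*, 2.52 for *Alox15*, 2.78 for *Ulk1*, 2.95 for *Ube2h* and 3.99 for *Fundc1*. Each had an exact two-sided permutation p of 0.1, the smallest that 3 mice against 3 can give, so that the design cannot reach 0.05. By their fold changes alone, the 6 downregulated genes did not share a size of fall. The log2 fold change of *Trim58* (-3.43) lay within the -3.46 to -3.29 of these 7 membrane genes, whereas *Fbxo7* fell by 1.21 and *Bnip3l* fell by 1.68 on the log2 scale.

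**Figure D3:**
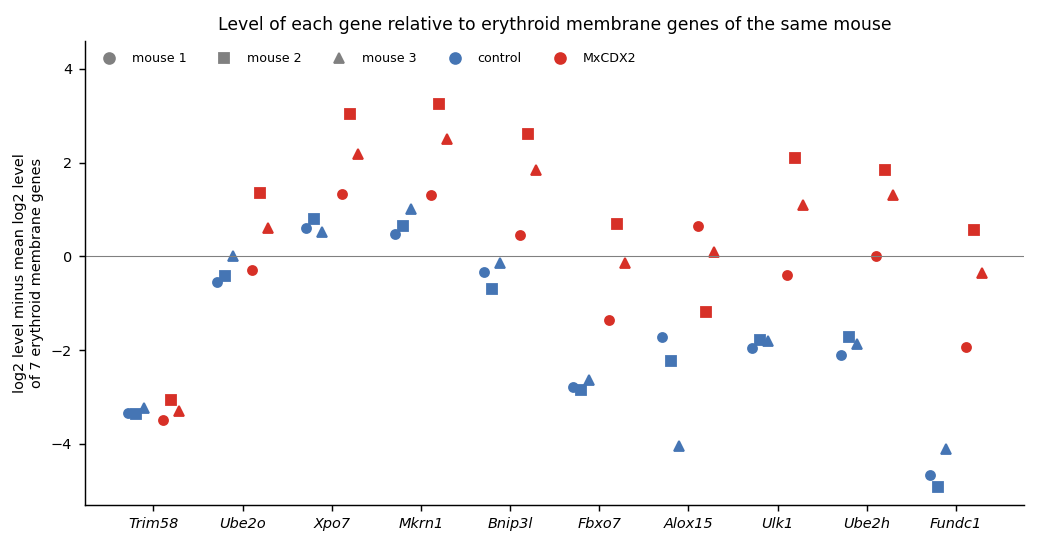
Log2 level of each of the 10 genes minus the mean log2 level of 7 erythroid membrane genes of the same mouse (vertical axis, log2), for control (blue) and *MxCDX2* (red) mice; symbols are mice 1, 2 and 3. *Trim58* and *Ube2o* overlap between groups, and the other 8 genes do not, which follows largely from the larger fall of the reference.

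*Trim58*, *Bnip3l* and *Ulk1* were then compared in pattern with the other tested genes above the same minimum of 100, by the same root mean square difference in centred log2 level over the 6 mice. For *Trim58* the nearest were *Car2*, a carbonic anhydrase of red cells (0.0802, log2 fold change -3.32), *Sptb*, erythroid beta-spectrin (0.0969, -3.37), and *Paqr9* (0.11, -3.42). The nearest to *Bnip3l* were *Rgs12* (0.0556), *Clcn3* (0.0837) and *Nt5c3* (0.0847), with log2 fold changes of -1.64, -1.65 and -1.74. *Ulk1* was nearest to *Adipor1* (0.0351), *Sertad3* (0.0526) and *Palm* (0.0616), with log2 fold changes of -0.90, -0.86 and -0.91. The distances are a description over 6 mice in 2 groups, so that genes of like fold change lie close to each other.

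Of 43 other genes of autophagy and mitophagy tested, 3 were downregulated past both thresholds, beside 9.03% of all tested genes, and 0 were upregulated. At an adjusted p-value below 0.05 of any fold, 11 were lower, beside 11.8% of all tested genes, and 1 was higher. The median log2 fold change was -0.14. *Optn*, which encodes the autophagy receptor optineurin, had 4053, 3213 and 3386 normalized counts in control and 976.7, 895.4 and 729.5 in *MxCDX2* mice (log2 fold change -2.03, SE 0.16, adjusted p = 0.00136). *Atg4a*, a protease that processes the ATG8 proteins, fell by 1.47 (adjusted p = 0.00163) and *Gabarapl2*, an ATG8 protein, fell by 1.24 on the log2 scale (adjusted p = 0.00156). The nearest paralogs of the members did not pass, with log2 fold changes of 0.26 for *Bnip3* (adjusted p = 0.444), -0.08 for *Fundc2* (adjusted p = 0.835) and -0.11 for *Ulk2* (adjusted p = 0.463). Per length, *Bnip3l* made up 20.4% to 24.7% of the summed level of 10 mitophagy receptor genes in control mice and 8.28% to 10.2% in *MxCDX2* mice. *Fkbp8*, another outer membrane receptor, had the highest mean of the 10 in both groups, at 125 in each. In control mice *Fkbp8* (125 ± 16.9) and *Bnip3l* (116 ± 13.9) were within their SDs of each other. *Bnip3l* was the higher of these in control mouse 1 (131 against 110). *Ulk1* made up 67.4% to 73.4% of *Ulk1* and *Ulk2* together in control mice and 57.7% to 59.2% in *MxCDX2* mice.

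Among 31 other ubiquitin-conjugating (E2) enzymes, 3 were downregulated past both thresholds, near the 9.03% of all tested genes. None was upregulated past them, and the median log2 fold change was -0.04. *Ube2l6*, the E2 of the ubiquitin-like protein ISG15, had 27268, 29437 and 29138 normalized counts in control and 4821, 1753 and 2755 in *MxCDX2* mice (log2 fold change -3.20, SE 0.37, adjusted p = 0.00293). *Ube2c*, the E2 of the anaphase-promoting complex, fell by 1.10 (adjusted p = 0.00401) and *Ube2e3* fell by 1.08 on the log2 scale (adjusted p = 0.0034). *Ube2c* was just under the fold threshold without *MxCDX2* mouse 2 (-0.99), and *Ube2e3* without that mouse (-0.98) or control mouse 3. With scaling by total counts only, both were just under it as well (-0.98 and -0.97). *Ube2o* was 4th of the 33 E2 genes per length in control mice and 27th in *MxCDX2* mice, and its share of their sum went from 4.52% to 5.20% in control mice to 0.926% to 1.37% in *MxCDX2* mice. *Ube2h* was 17th and 19th, with shares of 1.58% to 2.22% and 1.46% to 1.89% that overlapped. *Ube2l6* was 1st and 9th.

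Beside 9.03% of all tested genes, 1 of the 11 genes of the CTLH ligase that works with *Ube2h* was downregulated past both thresholds. This was *Ranbp10*, which encodes a scaffold subunit, with 18460, 21573 and 15601 normalized counts in control and 5443, 3647 and 3881 in *MxCDX2* mice (log2 fold change -2.10, SE 0.20, adjusted p = 0.00196). *Gid8* and *Ypel5* were lower at smaller folds (-0.80, adjusted p = 0.00426, and -0.87, adjusted p = 0.00411), and the median of the 11 was -0.25. Of 8 tested partners, paralogs and targets of the other ubiquitin genes, 2 were downregulated past both thresholds, beside the same 9.03%. *Trim10*, an erythroid gene of the TRIM family like *Trim58*, had 18263, 19047 and 13876 normalized counts in control and 2918, 512.4 and 1045 in *MxCDX2* mice (log2 fold change -3.52, SE 0.63, adjusted p = 0.011), although without *MxCDX2* mouse 3 it did not pass (adjusted p = 0.0536). *Psmf1*, the proteasome regulator that binds FBXO7, fell by 1.19 on the log2 scale (adjusted p = 0.00197). *Mkrn2*, the paralog of *Mkrn1*, had a log2 fold change of 0.12 (adjusted p = 0.614).

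Of 26 other exportins, importins and Ran cycle genes, 0 passed both thresholds by edgeR or DESeq2 with all 6 mice, and *Ipo11* passed without control mouse 2 (log2 fold change -1.16, adjusted p = 0.046). At an unadjusted p below 0.05, 3 were higher and 3 lower by edgeR, and 1 of them, *Tnpo3*, was higher at a log2 fold change of 0.39 (adjusted p = 0.0351). Their median log2 fold change was -0.03, beside -2.16 for *Xpo7*. *Ranbp17*, the paralog of *Xpo7*, had a log2 fold change of -0.16 (adjusted p = 0.773). *Xpo7* made up 51.1% to 58.5% of the summed per-length level of 8 exportins in control mice and 17.5% to 26.6% in *MxCDX2* mice. By mean it was the highest of them in both groups. In *MxCDX2* mice its mean was level with that of *Xpo1*, the main exportin of proteins (39.1 and 37.2). Of these mice, *Xpo7* was above *Xpo1* in mouse 1 only (52.5 against 39.8). It was below *Xpo1* in mouse 2 (30.4 against 35.2) and mouse 3 (34.3 against 36.5).

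**Figure D4:**
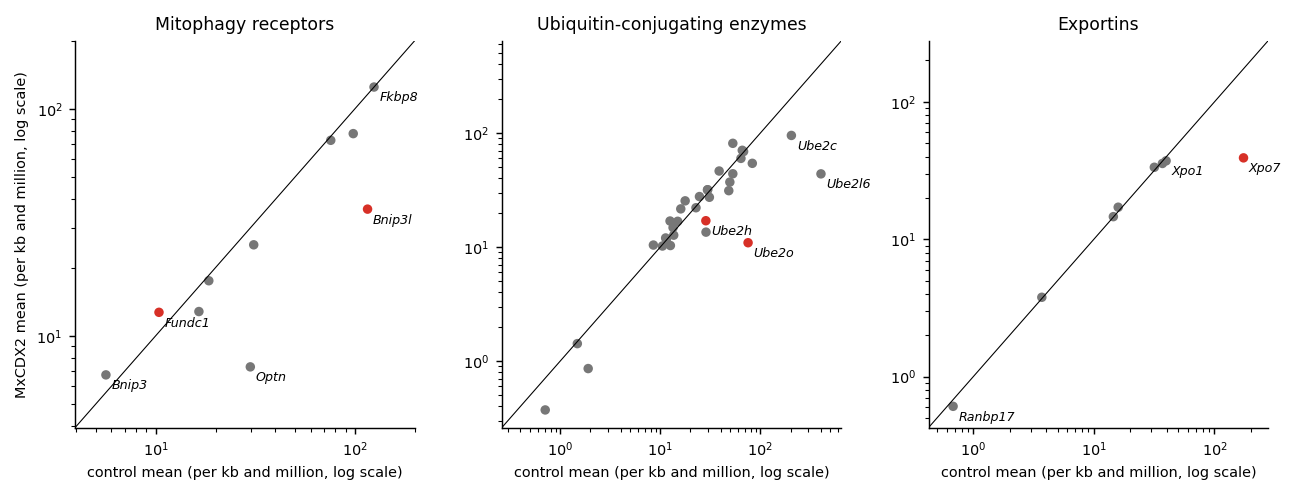
Mean RPKM (normalized counts per kb of transcript, scaled by library) in control (horizontal) and *MxCDX2* (vertical) mice, both on log axes, for mitophagy receptors, ubiquitin-conjugating enzymes and exportins, with the genes described above in red and the line of equal levels in black. *Xpo7* lies at 174 and 39.1 while the other exportins lie near the line, and *Ube2o* and *Bnip3l* lie below it.

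Among 9 tested lipoxygenases and their regulators, 1 was downregulated past both thresholds, beside 9.03% of all tested genes. *Alox5*, the lipoxygenase of leukotriene synthesis in myeloid cells, had 10549, 9777 and 7213 normalized counts in control and 3559, 6462 and 3706 in *MxCDX2* mice (log2 fold change -1.0, SE 0.27, adjusted p = 0.0404). It did not pass when control mouse 1, control mouse 2, *MxCDX2* mouse 1 or *MxCDX2* mouse 3 was left out, nor with scaling by total counts only (log2 fold change -0.87, adjusted p = 0.0563). *Alox12*, the platelet lipoxygenase, had 3236, 2383 and 25106 normalized counts in control and 1179, 739.6 and 1582 in *MxCDX2* mice (log2 fold change -3.13, adjusted p = 0.0592). Control mouse 3 stood apart in *Alox12* as it did in the megakaryocyte markers. *Hnrnpk* and *Pcbp1*, which encode proteins that bind *Alox15* mRNA and hold back its translation, had log2 fold changes of -0.01 and 0.14.

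**Figure D5:**
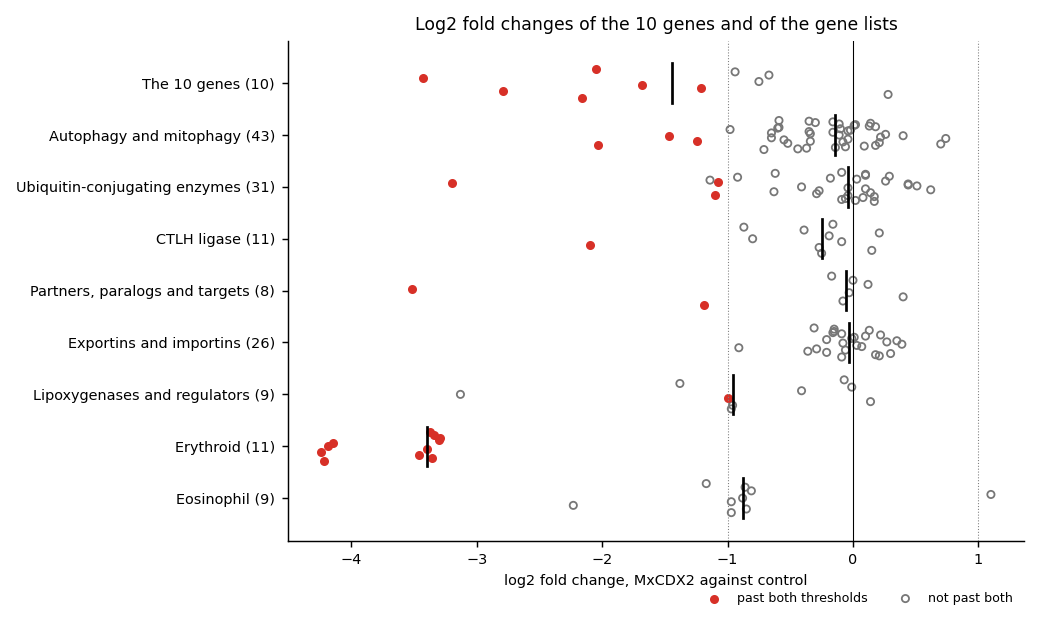
Log2 fold changes (horizontal axis, *MxCDX2* against control) of the 10 genes, of 6 pathway lists without them and of the erythroid and eosinophil markers, with the number tested after each name; filled red points passed both thresholds, open points did not, vertical bars are medians and dotted lines mark the fold threshold. The median is -1.44 for the 10 genes, between -0.96 and -0.03 for the 6 pathway lists and -3.40 for the erythroid markers.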

How the data were processed

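Bone marrow RNA-seq of 3 *MxCDX2* and 3 control mice was analysed. The authors aligned reads with STAR 2.5 to GRCm38 (Ensembl release 90) and counted them per gene with HTSeq 0.6.1, and the deposited values are raw counts per gene without normalization. Between 12.22% and 17.1% of counted reads were assigned to no gene, and these lines were left out. Groups came from the sample labels.

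Symbols and positions came from GENCODE M21 (GRCm38), where 37607 of the 39179 identifiers were found. The fit used edgeR 4.0.16 in R 4.3.3 (TMM, filterByExpr, glmQLFit, glmQLFTest), with Benjamini-Hochberg adjustment over 15980 genes. The SE was derived from the F statistic. The pipeline was tested on simulated data. DESeq2 1.42.0 and limma 3.58.1 (voom) were alternatives, with other scalings, filters and thresholds, a replicate block and each mouse left out. The 10 genes, the gene lists, the tests and the markers were chosen with earlier results of these data known. Genes named were the 10, up to 5 per pathway list with the largest change past the thresholds, the nearest paralogs, and the 3 nearest in pattern of *Trim58*, *Bnip3l* and *Ulk1*. Named after their values were seen were *Tnpo3*, *Gid8*, *Ypel5*, *Fkbp8*, *Xpo1*, *Hnrnpk*, *Pcbp1*, the eosinophil genes and the single neutrophil, monocyte and macrophage markers. Replicate numbers are those of the labels for *MxCDX2* mice and an order for control mice. Deviations from the group means were correlated for same-numbered mice, all littermates (0.163, 0.287 and 0.179, with other pairs at -0.333 to 0.114). Deviations from a mean of 3 mice are tied to each other, so that these values are not independent. The labels give no pairing of control with *MxCDX2* mice. The control mice differ in genotype, so that the spread within the control group mixes genotype with differences between mice. P-values set the group difference against the spread within the groups of these 6 littermates. *Ahsp* was not analysed here, and some other erythroid markers are not reported here and were left out of the erythroid list and reference after the data were seen.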

Additional observations from a re-analysis of the deposited data

How the results depend on the processing

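The number of the 10 genes past both thresholds was 6 in every alternative but 2: it was 5 when the null was a log2 fold change of 1, which lost *Fbxo7* (adjusted p = 0.295), and 7 without control mouse 3, which added *Ulk1*. Over all tested genes 2177 passed, and 611 with that null, 1043 at an adjusted p-value below 0.01, 2903 with DESeq2, and 1205 to 2406 with each mouse left out in turn (1205 without *MxCDX2* mouse 3). The fit with a replicate block (paired by number) gave 2205 genes and the same count of 6 of the 10, with *Ube2h* at an adjusted p of 0.0918, and changed no other call among the 10. Over the 16 settings, log2 fold changes ranged from -4.20 to -3.07 for *Trim58*, -3.06 to -2.62 for *Ube2o*, -2.43 to -1.99 for *Xpo7*, -2.19 to -1.92 for *Mkrn1*, -1.75 to -1.56 for *Bnip3l*, -1.33 to -1.09 for *Fbxo7*, -1.03 to -0.81 for *Ulk1*, -0.89 to -0.57 for *Ube2h*, -2.21 to -0.14 for *Alox15* and 0.19 to 0.40 for *Fundc1*. Genes downregulated past both thresholds numbered 2 to 4 of the autophagy and mitophagy list, 1 to 4 of the E2 list, 1 to 2 of the partner list, 0 to 2 of the lipoxygenase list, 0 to 1 of the exportin and importin list and 5 to 11 of the erythroid markers, and DESeq2 called 5 of the neutrophil and 6 of the B cell markers lower. *Trim58* relative to the erythroid membrane genes ranged from -0.08 to 0.13 with each mouse left out, the lowest without *MxCDX2* mouse 2, and was 0.72 relative to the globin genes; the cause was not tested. *Alox5* was lost also with every gene of at least 1 count (-0.97), and *Alox5*, *Ube2c*, *Ube2e3*, *Gabarapl2* and *Psmf1* when the null was a log2 fold change of 1.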
